A study of Nematostella vectensis with 47 samples.

Results

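In gastrulae of the sea anemone Nematostella vectensis, 77 of 19231 genes were higher in the offspring of animals that had lost DNA methylation, while the inhibitor-treated parental generation stayed close to its vehicle control. They were chosen by their RNA-seq levels, in CPM, counts scaled to a common library total. For each gene, the log2 ratio of a group mean to the F0 DMSO mean was taken with a pseudocount of 0.5 CPM, and this log2 ratio is called L here. A gene was taken where L was at least 0.8 in F1 GSK and in F1 MO, where L of F0 GSK lay between -0.4 and 0.4, and where all 4 F1 libraries were above all 6 F0 libraries. These 77 genes are called the members. Because the rule used these levels, the levels and L values are descriptions with no test.

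The groups were all whole gastrulae of the Massachusetts strain at 25 hpf (hours post-fertilization). F1 GSK embryos (2 RNA-seq libraries) were untreated and came from parents exposed to GSK-3484862 (GSK), an inhibitor of DNMT1. F1 MO embryos (2 libraries) were untreated and came from parents injected with morpholinos (antisense oligonucleotides that block translation) against DNMT1 and UHRF1. F0 GSK embryos (3 libraries) were kept in 5 µM GSK in 0.1% DMSO, and F0 DMSO embryos (3 libraries) in 0.1% DMSO alone. Each F1 replicate is a separate line, for F1 GSK from 1 pair of parents picked for low methylation, whereas F0 embryos came from pooled gametes of several males and females. RNA-seq held no F1 group of untreated parents, so generation, parental genotype, collection and inherited methylation state cannot be told apart in any difference between F1 and F0. It also held no morpholino-injected F0 embryos, so the levels of the members in the injected generation are not known.

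DNA methylation in Nematostella, as in many invertebrates, lies mostly on CpGs inside the bodies of a subset of genes, typically broadly expressed ones, while the starts of genes are usually free of it. DNMT1 is the enzyme that copies the mark onto the new strand after replication, and UHRF1 is the cofactor that brings DNMT1 to hemimethylated sites. When either is lost, the mark is diluted with each cell division. The gene table used here pairs identifiers with coordinates but not with product names, so the members are given by identifier and no function is stated for any of them.

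RNA-seq totals were 20823699 to 29358798 counts a library. F0 DMSO replicate 3 stood apart, with Pearson r values of 0.955 and 0.966 to replicates 1 and 2 across genes, whereas those replicates had an r of 0.991 with each other. It was also the lowest of the 6 F0 libraries for 45 of the 77 members. Its median log2 difference from the mean of the other DMSO libraries was -0.50 over the members and -0.09 over the 17153 genes that passed edgeR's filter on low counts (the tested genes, which include all 77 members). With this library left out, the rule found 55 genes, of which 35 were among the 77. The part of this library in the membership was not tested further.

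Among the members, L had a median of 1.02 in F1 GSK (range 0.80 to 2.79), 1.05 in F1 MO (range 0.81 to 2.33) and 0.05 in F0 GSK (range -0.40 to 0.39). The medians over the tested genes were 0.06, 0.05 and 0.02 in the same 3 groups. The rise was therefore mostly close to a doubling, with L of at least 1.5 in 5 members in F1 GSK and in 9 members in F1 MO. The criterion on F1 levels alone was met by 314 genes (1.63% of the table), and the separation of all F1 from all F0 libraries by 709 genes (3.69%). The gap itself was often narrow, since the lowest F1 library exceeded the highest F0 library by a median factor of 1.20, and by at least 1.5 in 14 members.

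**Figure D1:**
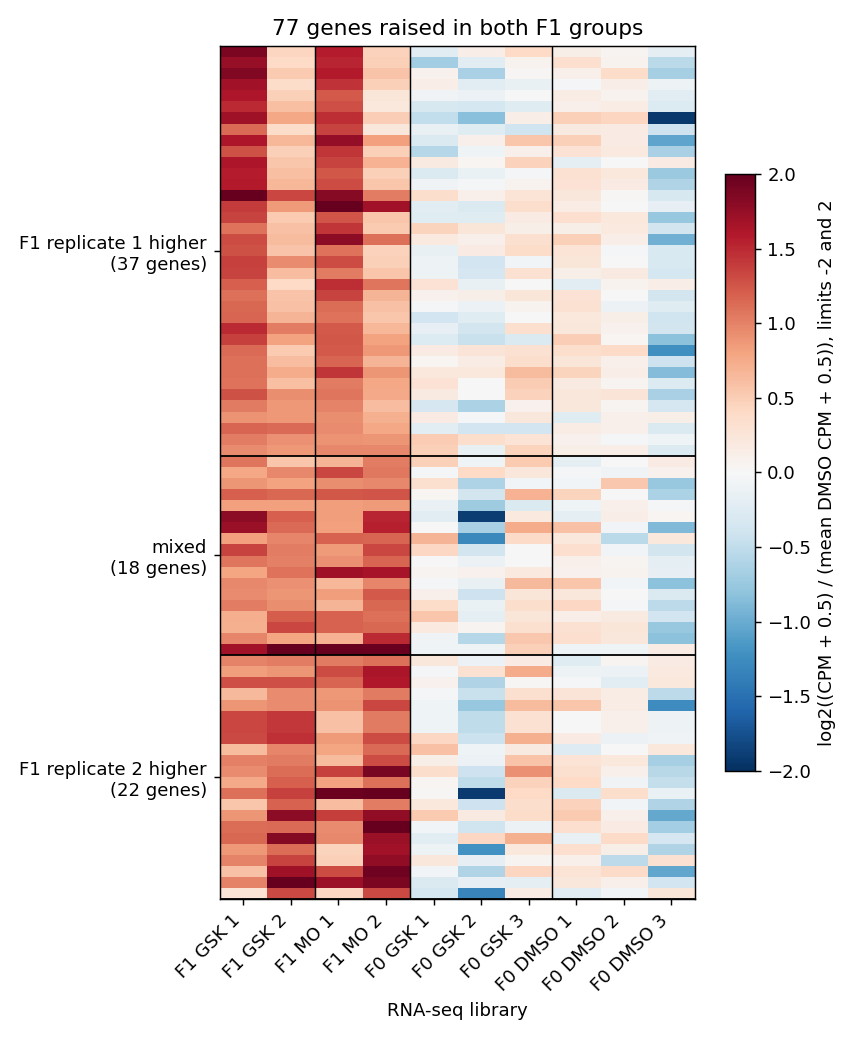
Log2 ratio of each library's CPM to the F0 DMSO mean (colour, limits -2 and 2) for the 77 members (rows) in the 10 RNA-seq libraries (columns), with rows grouped by which F1 replicate was higher in both F1 groups. All F1 columns are red by the rule; the upper block of 37 genes is darker in replicate 1 of both F1 groups, and F0 DMSO 3 is blue for most genes.

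Levels spanned a wide range. The mean over the 4 F1 libraries ran from 1.07 to 372 CPM, with a median of 13.9 CPM, and 33 members lay under 10 CPM, 34 between 10 and 100 CPM and 10 above 100 CPM. CPM is not scaled by gene length, so levels are compared only within a gene. The median level over all 10 libraries was 9.13 CPM for the members and 19.4 CPM for the tested genes.

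The member with the highest F1 mean was LOC5521603, at 414 and 366 CPM in F1 GSK, 400.0 and 307 CPM in F1 MO, 159, 130.1 and 213 CPM in F0 GSK, and 236, 209 and 159 CPM in F0 DMSO. Its L was 0.96 in F1 GSK and 0.81 in F1 MO, near the lower limit of the rule. LOC5511228 followed, at 376 and 274 CPM in F1 GSK, 314 and 211 CPM in F1 MO, 119.7, 103 and 167 CPM in F0 GSK, and 157, 142 and 103 CPM in F0 DMSO. In both genes replicate 1 was the higher F1 library of its group, and F0 DMSO 3 was the lowest of the 3 DMSO libraries.

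LOC5521451 stood at 329 and 202 CPM in F1 GSK, 288 and 187 CPM in F1 MO, 122, 151 and 174 CPM in F0 GSK, and 164, 133 and 109 CPM in F0 DMSO. LOC116617788 had 139 and 77.7 CPM in F1 GSK, 130.1 and 79.5 CPM in F1 MO, 45.9, 45.9 and 60.6 CPM in F0 GSK, and 68.3, 62.4 and 31.7 CPM in F0 DMSO. Again the first replicate of each F1 group carried most of the rise, and the second lay closer to the F0 range. LOC5513118 was among the 10 highest too but went the other way, with 85.0 and 105 CPM in F1 GSK, 99.7 and 112.5 CPM in F1 MO, 52.8, 39.9 and 67.8 CPM in F0 GSK, and 64.7, 60.3 and 37.6 CPM in F0 DMSO.

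The largest L in F1 GSK belonged to a pair of neighbouring genes on chromosome 2 that were close to silent in F0. In F1 MO the largest L was that of LOC116620099, at 2.33. LOC125559815 (chromosome 2, positions 15428891 to 15430147, assembly jaNemVect1.1) stood at 1.20 and 5.14 CPM in F1 GSK and at 2.68 and 1.58 CPM in F1 MO. It had 0, 0 and 0.24 CPM in F0 GSK, and 0, 0 and 0.09 CPM in F0 DMSO. LOC116604552 (positions 15426190 to 15428862), 28 bp away, had 0.80 and 3.68 CPM in F1 GSK, 1.64 and 1.92 CPM in F1 MO, 0.04, 0.08 and 0.07 CPM in F0 GSK, and 0.26, 0.20 and 0 CPM in F0 DMSO. In both genes the highest library was F1 GSK replicate 2 and the lowest F1 library was F1 GSK replicate 1. L was 2.79 in F1 GSK and 2.31 in F1 MO for the first gene, and 2.07 and 1.80 for the second; at such low levels L depends on the pseudocount.

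Both genes lie wholly within a longer gene, LOC5521743 (positions 15419091 to 15431016), which did not share their pattern. The host stood at 54.0 and 10.5 CPM in F1 GSK, 49.9 and 44.1 CPM in F1 MO, 13.2, 15.5 and 18.8 CPM in F0 GSK, and 46.1, 44.6 and 16.9 CPM in F0 DMSO. The F1 and F0 libraries of the host overlapped, and F1 GSK replicate 2, the highest library for the 2 inner genes, was the lowest for the host. The library kit was directional, but whether the counting used strand is not given in the sources used here, so reads of nested genes cannot be told apart with certainty.

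LOC5516958 on chromosome 3 was the member with the next largest of the smaller L values among those at 1 CPM or more in every F1 library. It had 17.9 and 9.58 CPM in F1 GSK, 13.6 and 7.64 CPM in F1 MO, 4.61, 3.78 and 4.36 CPM in F0 GSK, and 4.20, 3.59 and 2.72 CPM in F0 DMSO. The 6 F0 libraries lay between 2.72 and 4.61 CPM, all below the 4 F1 libraries, and this gene stayed a member under all 14 other settings of the rule that were tried. LOC116609797 on chromosome 9 reached 155 and 338 CPM in F1 GSK and 255 and 400 CPM in F1 MO, against 99.3, 68.1 and 139 CPM in F0 GSK and 125, 135 and 49.96 CPM in F0 DMSO. Here the second F1 replicate was the higher library in both groups.

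LOC5512020 had 107 and 71.0 CPM in F1 GSK, 56.8 and 94.6 CPM in F1 MO, 31.9, 20.2 and 54.2 CPM in F0 GSK, and 48.2, 30.8 and 17.2 CPM in F0 DMSO, and its lowest F1 and highest F0 libraries were almost level. LOC125570327 had 11.2 and 7.31 CPM in F1 GSK, 5.61 and 9.32 CPM in F1 MO, 2.43, 0.41 and 3.41 CPM in F0 GSK, and 2.495, 3.24 and 2.99 CPM in F0 DMSO. The remaining genes of this list were LOC116604491, LOC125557252 and LOC116611996, which were lower, with F1 libraries between 1.37 and 7.40 CPM, and LOC116620099 and LOC5503106, which are described with the comparisons they bear on.

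The 4 F1 libraries did not carry the rise evenly. In 37 members replicate 1 was above replicate 2 in both F1 groups, in 22 members replicate 2 was above replicate 1 in both, and 18 members were mixed. Over the tested genes the shares were 25.5%, 34.7% and 39.8% in the same order, against 48.1%, 28.6% and 23.4% of the members. Across members, the log2 ratio of replicate 1 to replicate 2 in F1 GSK and that in F1 MO had a Pearson r of 0.64 and a Spearman rho of 0.72, against 0.20 and 0.26 across the tested genes. Genes are not independent replicates, the points share 4 libraries, and these values are a description. Nothing in the labels links the same-numbered F1 lines, which have different parents, and a shared day or batch was not tested.

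LOC5521162 on chromosome 2 shows the larger class. It stood at 200.4 and 80.5 CPM in F1 GSK and at 169 and 86.6 CPM in F1 MO, against 67.9, 53.5 and 56.1 CPM in F0 GSK and 60.4, 67.8 and 57.8 CPM in F0 DMSO. The first replicate of each F1 group was far above the F0 levels, and the second stood only a little above them. LOC5521266, also on chromosome 2, had 155 and 69.9 CPM in F1 GSK, 119 and 59.6 CPM in F1 MO, 47.7, 46.5 and 50.1 CPM in F0 GSK, and 55.6, 52.6 and 42.8 CPM in F0 DMSO. LOC5503106 on chromosome 8 had 127 and 65.6 CPM in F1 GSK, 141 and 73.2 CPM in F1 MO, 33.5, 43.9 and 60.7 CPM in F0 GSK, and 57.6, 46.2 and 19.5 CPM in F0 DMSO. In each of these 3 genes both first replicates were above both second replicates.

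**Figure D2:**
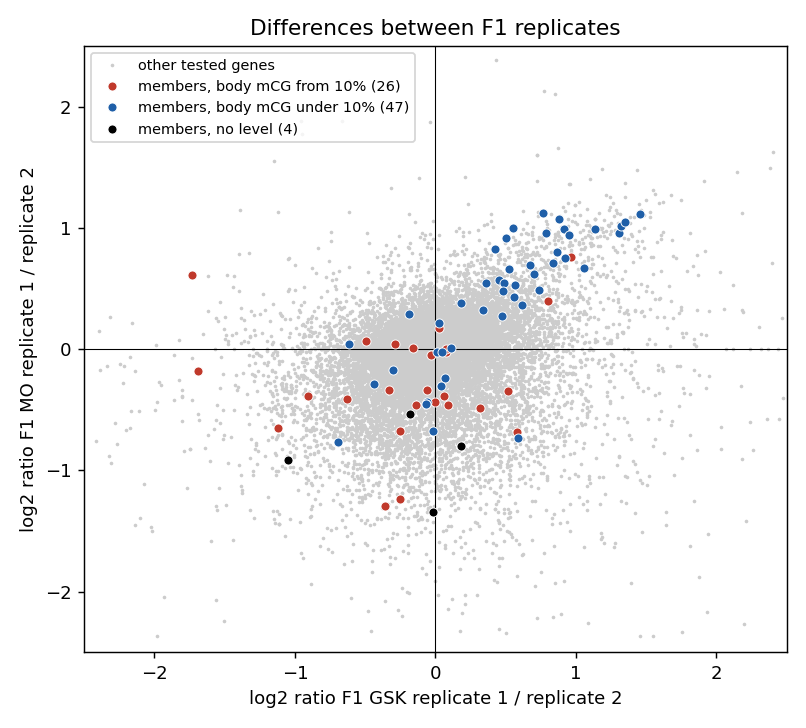
Log2 ratio of replicate 1 to replicate 2 in F1 GSK (x axis) and in F1 MO (y axis) for the members, coloured by gene-body methylation in untreated gastrulae, and for the other tested genes (grey; 60 lie outside the axes). Members in the upper right, higher in replicate 1 of both F1 groups, are nearly all unmethylated (blue), and most methylated members (red) lie below the horizontal line.

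**Figure D3:**
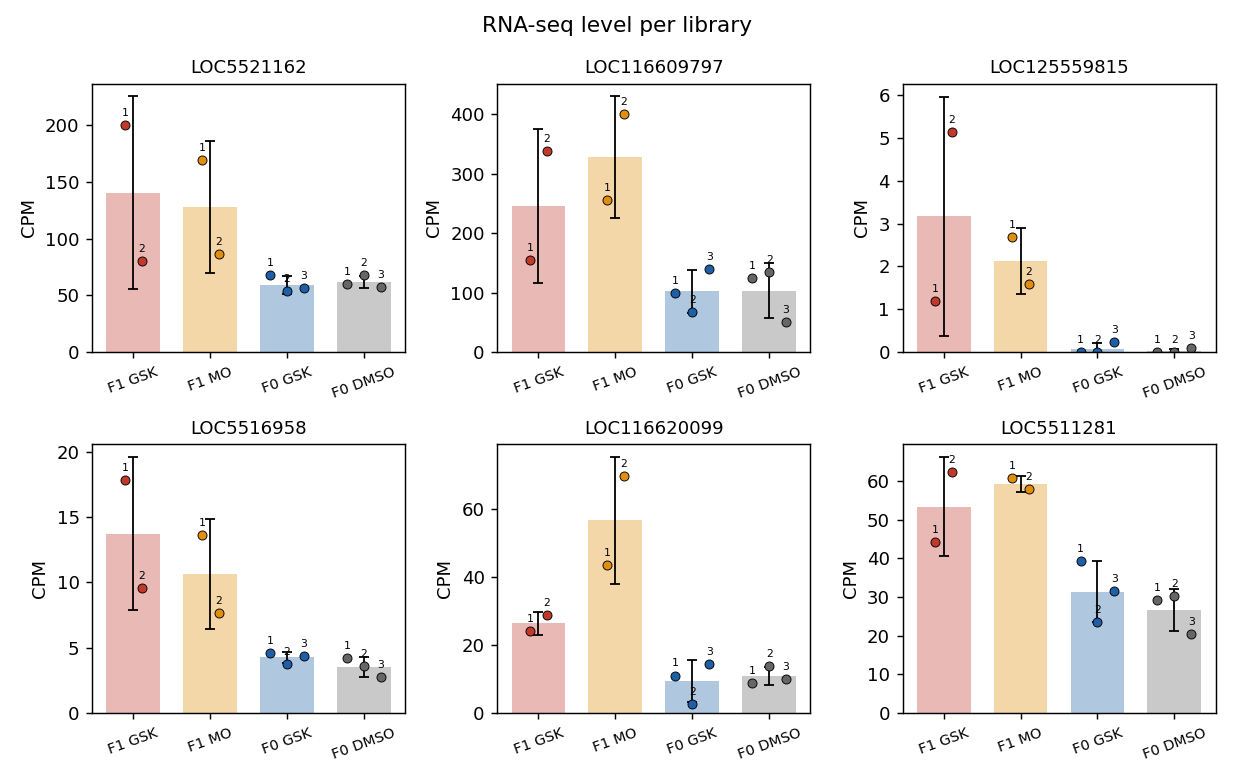
RNA-seq level in CPM of 6 members in F1 GSK (n = 2), F1 MO (n = 2), F0 GSK (n = 3) and F0 DMSO (n = 3): bars are means, error bars SD, points libraries with their replicate number. LOC5521162 and LOC5516958 are higher in replicate 1 of both F1 groups, LOC116609797 in replicate 2 of both, and LOC125559815 is near 0 in all F0 libraries.

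These classes differed in features that the rule did not use. Gene-body methylation was read as mCG, the percent of valid Nanopore calls at CpGs that were 5mC, in untreated gastrulae (1 library), and a body was called methylated from 10% mCG. Of the 37 members higher in replicate 1 of both groups, 4 were methylated, and 30 were under 1% mCG. Of the 19 members higher in replicate 2 that had a level, 12 were methylated, as were 10 of 17 mixed members. Over the tested genes the methylated shares of the same 3 classes were 54.7%, 52.3% and 52.3%, so the class alone did not go with methylation outside the set. Gene length differed as well, with medians of 8673, 4205 and 4602 bp in the same order, against 6726 bp over the tested genes.

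In all, 26 of the 73 members with a level had a methylated body (35.6%), against 52.9% of the 16910 tested genes with a level. The median body level was 0.37% mCG in the members and 13.2% in the tested genes. The members were thus more often unmethylated than genes in general, but the upper end was as full: 13 of 73 (17.8%) were at 50% mCG or more, against 18.8% of tested genes. Among members outside the LOC116 and LOC125 identifier series, nearly all with identifiers beginning LOC55, 10 of 41 were methylated (24.4%), against 57.9% of tested genes outside them. In the LOC116 and LOC125 series, 10 of 19 and 6 of 13 were methylated (52.6% and 46.2%), against 39.5% and 34.8% of tested genes.

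The methylated members were low in sperm of a treated male and at a level between sperm and untreated gastrulae in his offspring. These Nanopore libraries (1 each) come from a cross of a GSK-treated male with an untreated female, a different family from the F1 lines of the RNA-seq, and have no replicates. Over the 25 methylated members with a level in all 4 libraries, the median was 10.5% mCG in sperm of the treated male, 29.5% in the F1 gastrula, 25.0% in the F1 juvenile and 49.5% in untreated gastrulae. The medians over 8897 methylated tested genes were 17.2%, 27.5%, 26.1% and 39.8% in the same libraries. Relative to its own level in untreated gastrulae, a methylated member stood at a median of 30.6% in sperm and 59.6% in the F1 gastrula. Over the methylated tested genes these values were 48.3% and 70.7%. The level was lower in the F1 gastrula than in untreated gastrulae in 23 of the 25 members. The same held for 8753 of the 8897 methylated tested genes, so this is not particular to the members. These differences were not tested, since each library stands alone.

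**Figure D4:**
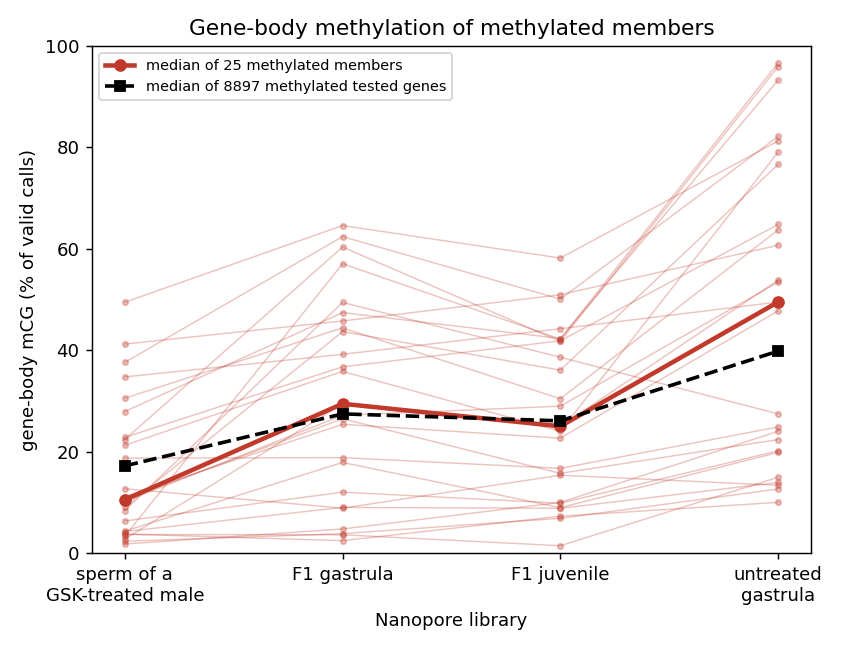
Gene-body mCG of the 25 methylated members (thin lines) in sperm of a GSK-treated male, the F1 gastrula, the F1 juvenile and untreated gastrulae (1 Nanopore library each), with the median of the members (thick red) and of 8897 methylated tested genes (dashed black). The median of the members is 10.5% in sperm, below the 17.2% of the tested genes, and 29.5% in the F1 gastrula, close to their 27.5%.

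The neighbouring pair on chromosome 2 was the most densely methylated of the set. LOC116604552 had 3.34% mCG in sperm (95% Wilson interval 2.93 to 3.81, 6314 calls), 57.1% in the F1 gastrula (55.3 to 58.8, 3116 calls), 42.2% in the F1 juvenile and 96.7% in untreated gastrulae (95.9 to 97.3, 2666 calls). LOC125559815 had 22.4% in sperm (20.6 to 24.3, 1964 calls), 60.4% in the F1 gastrula (57.4 to 63.2, 1067 calls), 41.7% in the F1 juvenile and 95.9% in untreated gastrulae (94.4 to 97.1, 860 calls). Such intervals cover counting error only. Both bodies were close to fully methylated at baseline, low in sperm, and intermediate in the offspring.

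LOC116620099 (chromosome 6, positions 3302895 to 3306668) had 2.78% mCG in sperm, 29.5% in the F1 gastrula, 25.0% in the F1 juvenile and 53.8% in untreated gastrulae. LOC125568265 on chromosome 7 had 27.9%, 47.4%, 42.3% and 93.2% in the same libraries. Not every methylated member followed this order, since LOC5508489 was at 8.39% in sperm, 49.4% in the F1 gastrula and 27.5% in untreated gastrulae.

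The members of the LOC116 and LOC125 series made up a larger part of the set than of the tested genes. LOC125 identifiers were 16 of 77 members (20.8%), against 7.30% of the tested genes, and LOC116 identifiers were 20 of 77 (26.0%), against 19.1%. In the class higher in F1 replicate 2, 17 of 22 members belonged to these 2 series, and in the class higher in replicate 1, 9 of 37. Of the members, 13 lay wholly inside another protein-coding gene (16.9%), against 6.24% of tested genes, and 11 of these 13 were LOC116 or LOC125 models. The shares of these series in the same classes of all tested genes, and among all nested tested genes, were not counted.

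The 13 inner members and their 12 hosts did not move together. Over the 13 pairs of inner gene and host, the median L of the inner genes was 0.996 in F1 GSK, 1.17 in F1 MO and 0.05 in F0 GSK, and that of their hosts was 0.07 in F1 GSK, -0.10 in F1 MO and -0.20 in F0 GSK. None of the hosts reached 0.8 in both F1 groups, although the host of LOC125560638 reached 0.82 in F1 GSK and that of LOC125568265 stood at 0.73 in F1 GSK and 0.72 in F1 MO. In all, 32 members overlapped another protein-coding gene at least in part, and their counts may hold reads of that gene. The share of tested genes with such an overlap was not counted.

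Neighbouring genes outside the set were raised somewhat more often than genes in general. Of the 137 tested genes next to a member, 6 had L of at least 0.8 in both F1 groups (4.38%), against 237 tested genes outside the set (1.39%). The median L of these neighbours was 0.20 in F1 GSK and 0.16 in F1 MO, against 0.06 and 0.05 over tested genes outside the set. Neighbours include hosts and overlapping genes, which may share reads with the members. The members lay on all 15 chromosomes, with 1 to 9 on each.

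LOC116613199 lies on chromosome 9 only 2 kb from LOC116609797, and both overlap the long gene LOC5505434. It stood at 183 and 281 CPM in F1 GSK, 253 and 246 CPM in F1 MO, 128, 116 and 139 CPM in F0 GSK, and 137, 131 and 65.4 CPM in F0 DMSO. The host LOC5505434 had L of -0.11 in F1 GSK, -0.10 in F1 MO and 0.19 in F0 GSK. The members LOC5512357 and LOC125572509, on chromosome 9, have the same gene length of 6726 bp and equal counts in all 10 libraries, so the same reads may be counted in both and they are not separate evidence. They stood at 14.5 and 15.2 CPM in F1 GSK and at 8.37 and 11.7 CPM in F1 MO, against 5.09, 3.66 and 6.78 CPM in F0 GSK and 5.38, 5.88 and 5.00 CPM in F0 DMSO. LOC125559135 on chromosome 2 and LOC125559889 on chromosome 14 share a length of 3969 bp and had an r of 0.94 between their counts, which were equal in 0 libraries. The rule itself makes the counts of members rise together in F1, so this r does not show shared reads. No sequences were compared, and whether reads are split between these genes was not tested.

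F1 MO and F1 GSK were also compared directly. The rule used the same F1 levels and took only genes that were high in both groups, which limits how far the groups can differ in a member, so the counts of members say nothing about how alike the groups are. No member was called between F1 MO and F1 GSK in edgeR's quasi-likelihood test at FDR < 0.01, as was the case for all 16556 genes in that fit (0% called). The p-values rest on 2 lines a group, which may differ in genotype and collection as well as in the way methylation was lost. At an unadjusted p under 0.05 there were 5 members (6.49%) and 3239 genes (19.6%), shares that cannot be set against each other for the same reason. The median log2 difference of F1 MO over F1 GSK was 0.04 over the members. In simulated data of this design, the test recovered 68% of genes changed by 2 on the log2 scale.

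LOC5500974 had the smallest p of the members. It stood at 126 and 122 CPM in F1 MO and at 67.0 and 81.8 CPM in F1 GSK, beside 39.7, 40.9 and 43.8 CPM in F0 GSK and 40.8, 40.2 and 34.2 CPM in F0 DMSO. Its log2 difference was 0.78 ± 0.14 (SE) with an adjusted p of 0.103 in edgeR and 0.00168 in DESeq2. The 2 F1 MO libraries were above both F1 GSK libraries. LOC116620099 stood at 43.5 and 69.8 CPM in F1 MO and at 24.0 and 28.7 CPM in F1 GSK, beside 11.02, 2.51 and 14.5 CPM in F0 GSK and 8.75, 13.9 and 9.90 CPM in F0 DMSO. Its log2 difference was 1.14 ± 0.24 (SE), with an adjusted p of 0.115 in edgeR and 0.00187 in DESeq2. These were the only 2 members that DESeq2 called higher, beside 217 genes (1.42%), and it called no member lower, beside 315 genes (2.06%). LOC125560638, at 5.96 and 2.74 CPM in F1 MO and 2.17 and 1.32 CPM in F1 GSK, had a larger log2 difference of 1.35 ± 0.53 (SE) but passed in neither tool.

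Accessibility was measured by ATAC-seq, which counts transposase insertions in open chromatin, in the same 4 groups (2 libraries each, 3 in F0 GSK). The F1 libraries stood apart in quality, with 11366484 to 19253881 counts in peaks, against 24059685 to 33980509 in F0. Their r within a group was 0.75 in F1 GSK and 0.63 in F1 MO, against 0.95 to 0.97 in F0, and 574 and 694 peaks were at 0 in the F1 MO libraries. Of the 77 members, 53 had a peak on the gene or within 500 bp of it (68.8%), against 89.4% of tested genes, and 34 had a peak centred within 500 bp of a gene end (44.2%), against 65.0%.

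No member had a peak called at FDR < 0.01 in F1 GSK against F0 DMSO, in F1 MO against F0 DMSO or in both F1 against both F0 groups, as edgeR called no peak at all in these 3 comparisons (0% of genes). They share the F0 DMSO libraries. At an unadjusted p under 0.05, there were 14, 26 and 33 of the 142 peaks of members in the same order (9.86%, 18.3% and 23.2%), against 9.32%, 18.6% and 18.9% of all peaks. These shares were close to those of all peaks in F1 GSK and F1 MO. With DESeq2, no member had a called peak in F1 GSK, 6 members had a peak called more accessible and 11 less accessible in F1 MO (background 14.7% and 18.5% of genes), and 4 and 5 did in F1 against F0 (5.33% and 8.55%). In simulated data, edgeR recovered 24% of peaks changed by 2 on the log2 scale in F1 GSK and 0% in F1 MO, so differences of that size would mostly go undetected at this spread.

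At the 40 peaks by gene ends of members, the median log2 ratio to the DMSO mean was 0.31 and -0.18 in F1 GSK replicates 1 and 2, and 0.01 and -0.39 in F1 MO replicates 1 and 2. The medians at the 10229 gene-end peaks of all tested genes were -0.01, -0.02, -0.09 and -0.15. Of the 17 genes in the class higher in RNA of replicate 1 that had such a peak, 9 were also more accessible in replicate 1 in both F1 groups, against 27.2% of the 3119 tested genes of that class. LOC5503106 was among them. The peak over its start stood at 12.05 and 2.75 CPM in F1 GSK and at 20.8 and 0.24 CPM in F1 MO, against 5.40, 8.15 and 9.08 CPM in F0 GSK and 8.42 and 7.86 CPM in F0 DMSO. In both F1 groups replicate 1 was above, and replicate 2 below, all 5 F0 libraries. Other genes of the class did not follow this. In LOC5507489 the log2 ratio of replicate 1 to replicate 2 at gene-end peaks was 3.12 in F1 GSK and -4.74 in F1 MO. Taken singly, replicate 1 was the more accessible in 14 of the 17 genes in F1 GSK and 11 in F1 MO, against 52.3% of tested genes of that class in each. In F1 GSK it was also the more accessible in 4 of 7 members of the replicate 2 class and 7 of 10 mixed members. In F1 MO these were 3 of 7 and 4 of 10. Over all 34 members with such a peak, 14 were more accessible in replicate 1 in both groups (41.2%), against 27.2% of tested genes. The lean to replicate 1 in F1 GSK was thus not particular to the replicate 1 class.

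In F0 GSK against F0 DMSO, 1 member had a peak called more accessible and 1 a peak called less accessible, of 53 with a peak (edgeR, background 2.93% and 0.593% of genes). DESeq2 called 1 more and 2 less accessible (3.76% and 0.678%). These genes are named because of these calls. In LOC5511281 (chromosome 3, positions 7817266 to 7825044), the peak at chr3:7820489-7821273, inside the gene, stood at 14.9, 14.2 and 16.5 CPM in F0 GSK and at 5.35 and 7.95 CPM in F0 DMSO. All 3 treated libraries were above both controls, by 1.17 ± 0.27 on the log2 scale (SE; edgeR's quasi-likelihood test with Benjamini-Hochberg adjustment, adjusted p = 0.00553). With the replicate number, taken to mark the cross, as a block in the same edgeR test, the adjusted p was 0.0161 and the call was lost. The same peak stood at 15.3 and 8.10 CPM in F1 GSK and at 42.6 and 35.5 CPM in F1 MO, where its log2 difference from F0 DMSO was 2.74 ± 0.41 (SE) with an adjusted p of 0.145. Its CpGs were at 89.5% mCG in untreated gastrulae, and the gene body was at 49.5% in sperm of the treated male, 64.6% in the F1 gastrula and 81.3% in untreated gastrulae.

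The peak at the other end of LOC5511281, over its start site, went the other way in F0. It stood at 9.73, 9.70 and 9.38 CPM in F0 GSK and at 17.8 and 18.7 CPM in F0 DMSO, with a log2 difference of -0.95 ± 0.23 (SE) and an adjusted p of 0.0112 in edgeR, just past the threshold. In the F1 libraries it stood at 6.60 and 19.2 CPM in F1 GSK and at 16.7 and 16.8 CPM in F1 MO. The RNA of this gene had 44.3 and 62.4 CPM in F1 GSK, 60.7 and 57.9 CPM in F1 MO, 39.3, 23.6 and 31.4 CPM in F0 GSK, and 29.3, 30.2 and 20.3 CPM in F0 DMSO.

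The peak called less accessible was at chr2:15430109-15431694, where it spans the end of LOC125559815 and of its host LOC5521743. It stood at 39.4, 37.4 and 36.4 CPM in F0 GSK and at 62.2 and 69.9 CPM in F0 DMSO, with a log2 difference of -0.83 ± 0.14 (SE; edgeR, adjusted p = 5.39e-05). In F1 it stood at 52.96 and 68.7 CPM in F1 GSK and 49.1 and 44.5 CPM in F1 MO. The RNA of the host had an L of -1.15 in F0 GSK, and the peak cannot be assigned to 1 of these genes.

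Start sites were read from CAGE-seq, which captures the capped 5′ ends of RNA, in F0 GSK and F0 control embryos (2 libraries each; the controls are labelled as untreated). A cluster of CAGE tags lay within 500 bp of a gene end in 20 of 77 members (26.0%), against 51.2% of tested genes. The members had a lower median RNA level than the tested genes (9.13 against 19.4 CPM), and these shares were not matched for level. By class, 15 of the 37 members higher in F1 replicate 1 had one (40.5%), 2 of the 22 higher in replicate 2 (9.09%) and 3 of the 18 mixed members (16.7%). Shares for the same classes of all tested genes were not counted. The CpGs around all 20 of these start sites were under 20% mCG in untreated gastrulae, against 0.524% of tested genes with a start that were at or above it.

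Of the 20 start clusters, 15 were listed in all 4 libraries and could be tested. GSK signal was lower in 8 of them at FDR < 0.01 (limma on log2 signal) and higher in 0, where the shares over the start clusters of all tested genes were 20.3% lower and 9.23% higher. At an unadjusted p under 0.05 there were 11, where the share over the start clusters of tested genes was 57.5%. The median log2 difference of GSK over control was -0.87 over these 15 clusters, -0.23 over the start clusters of tested genes and -0.21 over all 11462 clusters. By the rule, the RNA-seq L of all 15 genes lay between -0.4 and 0.4 for GSK, in libraries of another assay and against another control. Per the methods, CAGE-seq of GSK-treated gastrulae took RNA from 2 of the RNA-seq replicates, so the GSK side was not other embryos. Which replicates these were is not given in the sources used here. L is a ratio to DMSO embryos, whereas the CAGE controls are labelled as untreated. In the CAGE comparison GSK and its DMSO vehicle cannot be told apart. Leaving out either control library gave 0 calls for members, and few in all (22 and 87 clusters called lower), so the count rests on both controls.

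LOC5521266, on chromosome 2, had a CAGE signal of 65.4 and 91.0 in F0 GSK and 227 and 246 in F0 control, a log2 difference of -1.60 ± 0.21 (SE; limma, adjusted p = 0.00134). LOC5513118 had 7.54 and 13.2 in F0 GSK and 54.5 and 34.4 in F0 control, a difference of -2.01 ± 0.31 (SE; limma, adjusted p = 0.00216). In both genes the treated libraries were below the controls without overlap. LOC5511281 had 24.8 and 22.9 in F0 GSK and 80.8 and 67.8 in F0 control, with the log2 difference at -1.59 ± 0.19 (SE; limma, adjusted p = 0.000914). LOC5500974, by contrast, had 66.4 and 63.8 in F0 GSK and 65.6 and 47.5 in F0 control, and these overlapped. They did so in 3 of the 15 clusters in all. The share over the start clusters of all tested genes was not counted, so this number is a description of the members only.

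**Figure D5:**
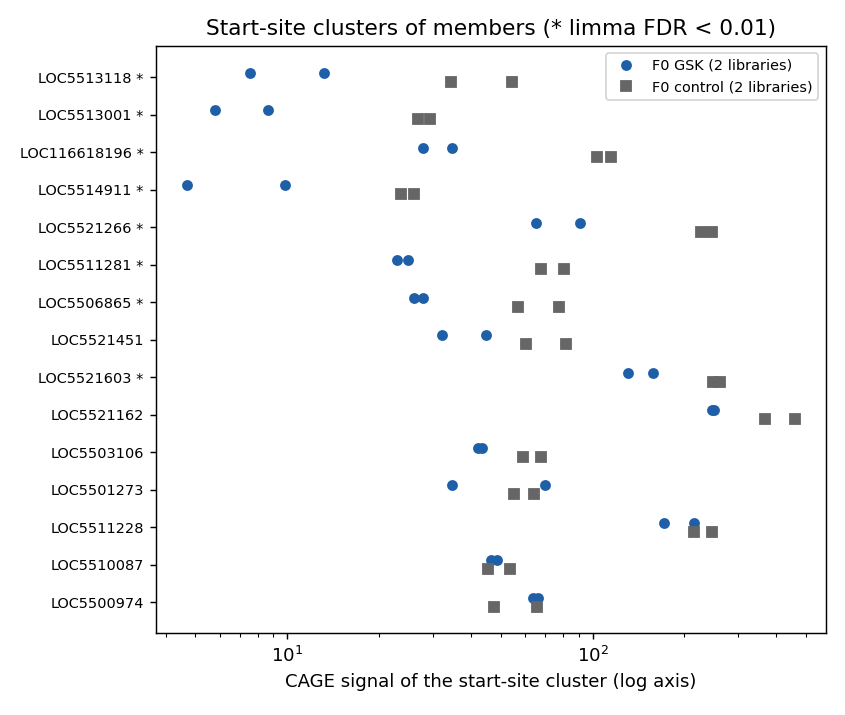
CAGE signal (log axis) of the start-site clusters of 15 members in F0 GSK (circles) and F0 control (squares), 2 libraries each, ordered by the log2 difference. The GSK signal was called lower in the 8 genes marked with an asterisk, and the groups overlap in 3 others, LOC5500974, LOC5501273 and LOC5510087.

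The edges of the set were soft. Just inside the limit on F1 GSK were LOC5513118, LOC116615987 and LOC116619244, with L of 0.80, 0.80 and 0.81, and just outside were LOC5504195, LOC125561953 and LOC5510066, with 0.80, 0.79 and 0.79. On F1 MO, LOC5521451, LOC5521603 and LOC116618598 were just inside at 0.81, 0.81 and 0.82, and LOC5511879, LOC125573327 and LOC5513641 just outside at 0.80, 0.80 and 0.78. On F0 GSK, LOC125570327 at -0.40, LOC116611253 at -0.39 and LOC125562994 at 0.39 were just inside, and LOC5522236, LOC5502096 and LOC5513480 were just outside, at absolute values of 0.40, 0.40 and 0.41. On the separation of F1 from F0, LOC5512415, LOC125560615 and LOC125562994 were just inside, with a lowest F1 level 1.01, 1.01 and 1.02 times the highest F0 level, and LOC5517253, LOC116616148 and LOC5513134 were just outside, at 0.99, 0.98 and 0.98 times. Under 14 other settings of the rule, 6 members stayed in throughout: LOC125557252, LOC125560638, LOC125568265, LOC5508795, LOC5513001 and LOC5516958.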

How the data were processed

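Gastrulae of Nematostella vectensis were profiled by RNA-seq (2 F1 GSK, 2 F1 MO, 3 F0 GSK and 3 F0 DMSO libraries), ATAC-seq (2, 2, 3 and 2), CAGE-seq (2 F0 GSK and 2 F0 control) and Nanopore sequencing (1 library each of sperm, F1 gastrula, F1 juvenile and untreated gastrulae). For RNA-seq, the authors deposited an unscaled table of counts by gene; which of their counting routes made the table is not given in the sources used here. For ATAC-seq, reads were counted by the authors over a merged list of MACS3 peaks with featureCounts, giving 1 count for each peak and library. For Nanopore, every CpG has deposited counts: valid calls, and those called 5mC or 5hmC. For CAGE-seq, each tag cluster has a signal that the authors scaled in CAGEr to a power law. Of the per-sample columns, 0 were left unused.

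Members were found on CPM, from the column sums. The members, the lists and the tests were chosen with earlier results of these data known. Count tests used edgeR 4.0.16 under R 4.3.3 (TMM, filterByExpr, quasi-likelihood, FDR < 0.01 over all genes or peaks), and were repeated in DESeq2 1.42.0. CAGE signal, as log2(signal + 1), was tested with limma 3.58.1. Python 3.11.15 (pandas 2.3.3, numpy 2.4.6, scipy 1.17.1) served for the tables. The fits were checked on simulated data with 200 features changed. mCG used CpGs with at least 10 valid calls, and at least 5 such CpGs in a body or 3 around a start. Mean coverage was 61.4, 44.3, 55.5 and 33.5 calls per CpG in sperm, F1 gastrula, F1 juvenile and untreated gastrulae. Sequence names of the peak and methylation files were matched to chromosomes 1 to 15 in order: 65.2% of control CAGE summits then lay within 100 bp of a gene end, and at most 3.04% in the other orders.

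Per the methods, each F0 cross was split between GSK and DMSO, so the F0 GSK comparison is paired by design. The labels do not state that F0 numbers match between groups. Same-numbered deviations had r values of 0.04 and 0.01 in ATAC-seq. The main fits had no block, and a block by number was run as an alternative. F1 numbers mark separate lines with different parents, and nothing in the labels links lines of the same number. Replicates are separate lines or crosses. A rule named the 10 members with the highest F1 mean, the 10 with the largest smaller L at 1 CPM or more in every F1 library, members next to each other, those called in a comparison, and 3 on each side of every threshold. Others were chosen after their values were seen. The gene table gives neither strand nor product names, so start sites were taken at either gene end where a CAGE cluster read into the gene, and peaks near either gene end stood in for peaks near the start. Lists by product name, cell type markers and sequence features could not be applied, and whether the embryos hold gastrula markers was not checked. The alternatives were other scalings, pseudocounts, filters, tools, thresholds, coverage minima, distances, a replicate block, and each library left out. EM-seq, eggs and the authors' peak lists were not analysed here. In bulk embryos, fewer cells of a type and less RNA per cell cannot be told apart.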

Additional observations from a re-analysis of the deposited data

How the results depend on the processing

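The set itself depended on the settings. It held 62 genes with TMM sizes (58 shared with the 77), 66 with DESeq2 size factors (60 shared), 118 with a pseudocount of 0.1 (70 shared) and 61 with a pseudocount of 1 (58 shared). Leaving out 1 library at a time gave 55 to 132 genes, with 132 without F0 DMSO replicate 1 and 130 without F1 GSK replicate 2, and 35 to 70 of the 77 among them. Without F0 DMSO replicate 3, 12 of the 37 members higher in F1 replicate 1, 12 of the 22 higher in replicate 2 and 11 of the 18 mixed members stayed.

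No alternative reversed the sign of L in F1 for a member. For other pseudocounts and left-out libraries the rule fixes this in advance, because every F1 library of a member is above every F0 library. The size of the move is open only in part: 1947 values of L moved by no more than the SD between replicates, and 209 by more. Leaving out an F0 GSK library, or a library of the other F1 group, cannot move L at all. Leaving out 1 of the 2 libraries of its own group can seldom move L by more than their SD. Many of the 1947 values were thus fixed in advance, and the 2 counts do not measure how stable L is. The methylated share of members stayed between 27.4% and 35.6%, the number with a start cluster between 15 and 24, and the share of raised neighbours at 5.26% within 10 kb.

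For F1 MO against F1 GSK, members called higher were 2 with DESeq2 and 0 in the other fits, and members called lower were 0 in all, leaving out a library included (0 to 0). For the ATAC-seq of F1 MO against F0 DMSO, DESeq2 gave 6 members with a peak called more accessible and 11 less accessible, and for F1 against F0 it gave 4 and 5. Leaving out 1 library gave 0 to 17 members more and 0 to 16 less accessible in F1 GSK, where the higher counts came without either F1 GSK library. It gave 0 to 35 more and 0 to 31 less in F1 MO, without either F1 MO library, and 0 to 4 more and 0 to 10 less in F1 against F0, again without either F1 MO library. In the F1 GSK and F1 MO fits the lone F1 library was assumed to vary like the control group, whose 2 libraries were close, so their calls cannot be read as differences between conditions. In F1 against F0 the lone F1 MO library was assumed to vary like the other groups, and the cause of those calls was not tested.

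For F0 GSK against F0 DMSO, 0 members had a peak called more accessible and 0 less accessible with all 9 libraries in the same fit or with peaks near a gene end only, against 1 and 1 otherwise. At FDR < 0.05 there were 2 more and 2 less accessible, and DESeq2 gave 2 less accessible. Leaving out 1 library gave 0 to 2 in each direction. It was 0 more accessible without F0 DMSO replicate 1 or 2 or F0 GSK replicate 2 or 3, and 0 less accessible without F0 DMSO replicate 2. Start clusters called lower were 0 to 11 when a library was left out, and called higher 0 to 0. The causes of these changes were not tested, apart from the smaller number of libraries.

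With the replicate block, 0 members had a peak called more accessible and 1 less accessible in F0 GSK, where the number is taken to mark the cross. The F1 comparisons share only a number: the block gave 0 members in each direction in all of them, and same-numbered deviations in RNA-seq of F1 MO and F1 GSK had an r of 0.20 over the genes tested.

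Depth limits the lowest members, whose F1 libraries hold as few as 10 counts, and 4 members had 0 counts in at least 1 F0 library. With 2 lines in each F1 group, differences between F1 and F0 rest on 4 families.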
